A study of Mus musculus with 7 samples.

Results

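Liver of female CD-1 mice (strain Crl:CD1(ICR)), 8 weeks of age, was assayed by ChIP-seq, and the labels name no treatment. There were 4 libraries for CTCF and 3 for Rad21, a subunit of cohesin. Each factor is represented by 1 list of MACS2 peaks that the authors called on the pooled libraries, so the variation between mice cannot be estimated, and the number of reads behind each list is not part of it. The lists hold 68667 CTCF peaks and 68656 Rad21 peaks in mm9 coordinates. They carry no expression values, so the liver label could not be checked against marker genes.

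The sites described here are distal CTCF sites without a called cohesin peak (Lone CTCF sites) of at least moderate strength. They were chosen by 3 values of the peak lists: a CTCF fold enrichment at the summit of at least 5 over the local background, no Rad21 peak sharing 1 bp or more with the CTCF peak, and a summit more than 1 kb from every GENCODE transcript start. On the autosomes 3956 CTCF peaks passed, which is 5.76% of the CTCF list, 22.6% of the 17543 autosomal CTCF peaks without Rad21 and 12.9% of the 30563 distal autosomal CTCF peaks of that strength. The other 26607 distal peaks of that strength overlapped Rad21 (CAC sites, for cohesin-and-CTCF) and are the comparison. The authors sorted their sites under these names by the peaks of individual replicates. Here overlap with the pooled Rad21 list decides, so the classes are not the same. Strength, Rad21 and distance from genes made the choice, so these values are description and were not tested.

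CTCF is a DNA-binding protein with a row of zinc fingers that reads a long, GC-rich motif. Cohesin is a ring-shaped complex that extrudes DNA loops and is halted by CTCF, which is why most strong CTCF sites in a tissue also give a cohesin signal. The central fingers of CTCF read the core motif, and fingers toward one end can also contact a short upstream motif that lies before the core. Many CTCF motifs in rodents were spread by short interspersed elements, B2 elements among them, and CpG methylation inside the motif can weaken binding at some sites.

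The sequences that carry the comparisons are printed 5′ to 3′ on the strand of the match or letters, from the mm9 genome, and are named by the nearest protein-coding gene. The first set shows 5 of the 12 members with the highest CTCF fold enrichment, all with a called core match. Capitals mark the called 20 bp match to the CTCF core motif and, where they are present, the upstream letters TGCAGTNCC, with N for any base.
Mrgprb5 region, chr7:55387749-55387808, minus strand: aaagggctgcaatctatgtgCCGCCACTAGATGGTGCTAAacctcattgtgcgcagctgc
Cd109 intron, chr9:78548669-78548728, plus strand: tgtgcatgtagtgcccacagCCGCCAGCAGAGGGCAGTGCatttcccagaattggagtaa
Nts region, chr10:101897906-101897965, plus strand: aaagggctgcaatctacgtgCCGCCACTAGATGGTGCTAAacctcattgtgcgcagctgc
Olfr444 region, chr6:42972120-42972179, plus strand: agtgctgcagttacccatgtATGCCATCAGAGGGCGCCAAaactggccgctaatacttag
Kap region, chr6:133762523-133762582, minus strand: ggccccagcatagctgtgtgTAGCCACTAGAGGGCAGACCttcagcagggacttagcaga

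The second set shows the word AGAAGAGGG, the commonest 9 letters at positions 6 to 14 of the members' matches, at the 3 strongest members that hold it. In 2 of these the upstream letters also stand exactly, 14 to 6 bp before the match.
Olfr687 region, chr7:112405339-112405398, plus strand: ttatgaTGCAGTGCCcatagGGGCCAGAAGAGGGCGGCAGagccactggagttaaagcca
Clint1 region, chr11:45442925-45442984, minus strand: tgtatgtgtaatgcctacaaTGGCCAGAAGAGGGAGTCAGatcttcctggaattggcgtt
Bicc1 region, chr10:70379599-70379658, plus strand: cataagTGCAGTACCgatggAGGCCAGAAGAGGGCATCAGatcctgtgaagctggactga

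The third set shows the upstream letters at the 3 strongest members that have them but no called core match.
Bdkrb2 region, chr12:106714882-106714941, minus strand: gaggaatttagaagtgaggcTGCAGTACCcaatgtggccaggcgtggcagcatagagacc
Nfatc2 region, chr2:168276767-168276826, plus strand: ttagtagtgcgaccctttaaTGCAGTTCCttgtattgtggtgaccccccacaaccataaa
Rest intron, chr5:77705140-77705199, minus strand: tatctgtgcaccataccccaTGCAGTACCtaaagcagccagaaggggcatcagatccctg

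The fourth set holds 2 of the members with the highest motif scores, and the fifth a strong member in which neither a match nor the upstream letters were found, shown around its summit on the plus strand.
Pdpn region, chr4:142848663-142848722, plus strand: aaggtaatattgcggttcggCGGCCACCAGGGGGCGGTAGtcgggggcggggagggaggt
B3galtl region, chr5:150583128-150583187, minus strand: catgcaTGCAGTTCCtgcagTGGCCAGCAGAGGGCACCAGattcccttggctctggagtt
Diras2 region, chr13:52448164-52448223, plus strand: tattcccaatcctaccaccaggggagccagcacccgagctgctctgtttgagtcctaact

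The members were at the weak end of the strength range that the rule allowed. Their median CTCF fold enrichment was 6.46 (95% order-statistic interval 6.37 to 6.53), against 13.5 (13.4 to 13.6) for the distal CAC sites, and 94 of the 3956 members reached 15 or more. Of the distal CTCF peaks with a fold enrichment between 5 and 5.5, 41.9% lacked Rad21 (902 of 2154, 95% Wilson interval 39.8 to 44.0%). That share was 33.0% between 6 and 7, 16.5% between 8 and 10, 5.76% between 10 and 15, and 0.824% (94 of 11413, 0.674 to 1.01%) at 15 or more. Intervals cover counting error among peaks and not the variation between mice. At equal CTCF strength the peaks without Rad21 were slightly narrower, with a median width of 346 bp against 376 bp between 6 and 7, and had a lower −log10 q (23.9 against 25.9). The gap in −log10 q was wider at the strong end, with 68.7 against 105.8 between 10 and 15 and 128.5 against 248.8 at 15 or more, so equal fold enrichment was not equal significance there.

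The gap to the nearest Rad21 peak varied over several orders of magnitude. It was 8068 bp at the median (7745 to 8462 bp), up to 1 kb at 321 members, between 1 and 10 kb at 1893, between 10 and 100 kb at 1534 and over 100 kb at 208. The 3 shortest gaps were 6 bp in an intron of Bicc1, 6 bp in an intron of Invs and 13 bp in an intron of D4Ertd22e. At the CAC sites between 5 and 5.5 in CTCF fold enrichment, the overlapping Rad21 peak had a median fold enrichment of 4.62 and a 10th percentile of 3.20, while the lowest value in the Rad21 list was 1.71. A member is therefore a site without a called Rad21 peak, not a site shown to be free of cohesin. When only Rad21 peaks with a −log10 q of at least 10 were counted, the number of members was 6819 and the median gap 1654 bp.

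**Figure D1:**
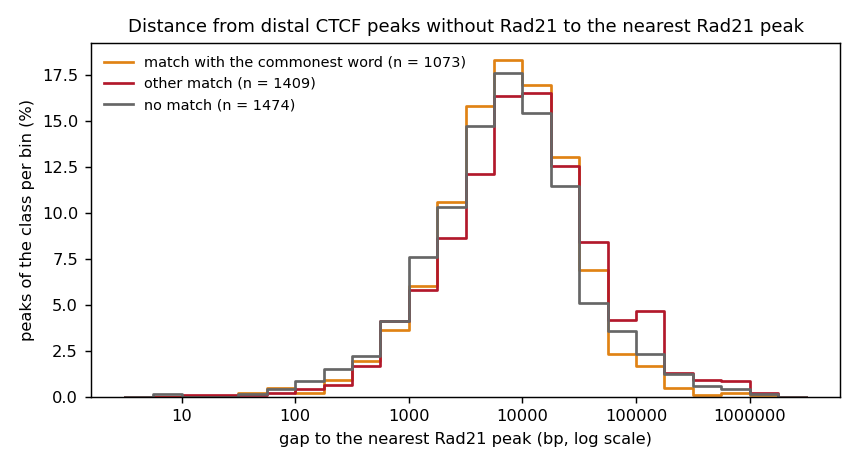
Distance in bp (log scale, x axis) from distal CTCF peaks without Rad21 to the nearest Rad21 peak, as the percentage of each class per bin (y axis), for 1073 peaks whose match holds the commonest word, 1409 with another match and 1474 without a match. The 3 curves overlap over most of their range, with medians of 7730, 9900 and 7366.5 bp.

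The CTCF core motif was more frequent at the weaker members than at CAC sites of equal strength, and less frequent at the strongest ones. The motif matrix was learned from the strongest CTCF peaks of the odd-numbered autosomes (consensus TGGCCACCAGGGGGCGCCGG) and applied to the even-numbered ones, and the other way round, and a match was called within 100 bp of the summit at a score passed by 1% of windows without a peak. A match was called at 2482 of 3956 members (62.7%, Wilson interval 61.2 to 64.2%), while 44.2% of all autosomal CTCF peaks had one. CAC sites weighted to the members' strength had a match in 50.5%, a difference of 12.3 percentage points (95% interval 10.4 to 14.04). This difference was no larger than that of 1 form of the motif, described below, which was picked from the members.

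Between 5 and 5.5 in fold enrichment the shares were 57.4% and 36.7%, and between 10 and 15 they were 71.6% and 72.2%. At 15 or more they were 60.6% of 94 members (50.5 to 69.9%) and 82.5% of 11319 CAC sites (81.8 to 83.2%), with a median fold enrichment of 16.8 and 19.5. The size of the difference followed the strength limit, with 2.98 percentage points (0.390 to 5.44) at a minimum of 7. Without weighting by strength it turned to −7.23. Among peaks with a match, the mean score was 0.64 bits higher at the members (0.51 to 0.77), at 18.6 ± 2.62 (SD, n = 2482).

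The members' matches had a second common form. A matrix learned from the strongest members themselves had the consensus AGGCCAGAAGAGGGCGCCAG on odd-numbered and on even-numbered autosomes alike, and the word AGAAGAGGG stood at positions 6 to 14 of 1073 of the 2482 matches. It was present in the match of 27.1% of the members (25.8 to 28.5%), against 9.6% of all autosomal CTCF peaks and 12.1% of CAC sites weighted to the members' strength. On either strand anywhere within 100 bp of the summit, the word was found at 30.4% of the members and in 1.82% of flanking windows of the same length. The word was picked because it was frequent at the members, so its share and its excess over CAC sites are a description and were not tested. It was the commonest of such words among the members of the odd-numbered autosomes and among those of the even-numbered ones. Once the peaks with the word were set aside, the difference in core motif share between members and CAC sites was 4.82 percentage points (2.73 to 6.89). Setting them aside took out only peaks with a match, 27.1% of the members against 12.1% of weighted CAC sites. The smaller difference is therefore a description too. The gap between the word's shares at members and weighted CAC sites was wider than the 12.3 percentage points of the core motif. Over the 7 ranges together, called matches without the word were therefore not in excess at the members. Below a fold enrichment of 6 they were still more frequent there, and above it less frequent. The difference of 12.3 percentage points rests on the word in this sense and is no test apart from it.

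Many of these matches had exact copies elsewhere in the genome, and 865 of the 2482 members with a match shared it with another member. Of the 2482 called matches 1157 occurred once in the genome, 1325 had 2 or more exact copies and 727 had 20 or more (29.3%, 27.5 to 31.1%). Over all autosomal CTCF peaks with a match 15.7% had 20 or more copies, and over CAC sites at the members' strength 18.5%, which is 10.8 percentage points lower than the members (8.64 to 13.0) and 20.5 lower with no weighting by strength. Of the 727 repeated matches 666 held the word, while 61 of the 1409 other matches of the members (4.33%) had 20 or more copies. The word was picked from the members, so this excess is largely that of the word and is a description. Repeated matches were not particular to the members. They made up 42.3% of the 3996 matches at distal Lone CTCF peaks below a fold enrichment of 5 and 27.5% of the matches at Lone CTCF peaks of promoters. The match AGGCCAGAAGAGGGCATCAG was shared by 75 members and had 1156 genome copies. Next came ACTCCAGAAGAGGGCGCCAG, at 46 members with 473 copies. Of the 171 autosomal CTCF peaks with that match 23 overlapped Rad21, whereas 258 of the 445 peaks with the first match did. Over all 67010 autosomal CTCF peaks, 17543 did not overlap Rad21. CTCF strength was not held equal in these counts.

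The likeness of the word-bearing sites extended past the motif. From 70 to 30 bp before the match, the most frequent base at each position was held by 49.3% of these 1073 members on average, by 33.5% of the 1409 members with another match and by 28.7% of 7465 CAC sites with another match and a fold enrichment under 15. The 2454 CAC sites whose match holds the word were not profiled, so this likeness is not shown to be particular to the members. The genome file names no repeats, so these sites were not assigned to a repeat family.

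**Figure D2:**
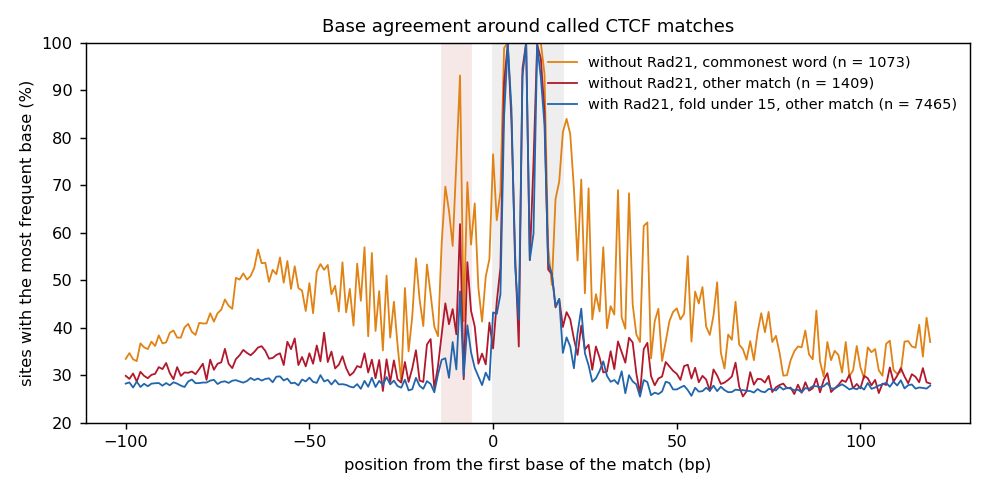
Percentage of sites with the most frequent base (y axis) at each position from the first base of the called match (bp, x axis), for 1073 members whose match holds the commonest word, 1409 members with another match and 7465 CAC sites with another match and a fold enrichment under 15. Grey marks the 20 bp match and pink the 9 positions of the upstream letters, where the highest values were 93.1%, 61.8% and 47.7%. CAC sites whose match holds the word are not shown.

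Most genome copies of the word had no called CTCF peak. Reads that did not map uniquely had been discarded, so a copy in repeated sequence may lack a peak for that reason. This was not tested, and the shares below count called peaks only. The 11 letters CAGAAGAGGGC occurred 56989 times on the autosomes, and 6345 copies (11.1%, 10.9 to 11.4%) lay within 90 bp of a CTCF summit, 3388 of them at peaks without Rad21. The next 3 letters went with large differences in that share. CAGAAGAGGGCATC had 30273 copies with a CTCF peak at 7.37% (7.08 to 7.67%), and CAGAAGAGGGCGTC had 7538 copies with a peak at 8.50%. CAGAAGAGGGCACC reached 30.1% of 2527 copies, CAGAAGAGGGCGCC 51.6% of 1074 (48.6 to 54.6%) and CAGAAGAGGGCGCT 54.3% of 495 (49.9 to 58.7%). Of the 12 commonest forms, the 7 with T as the middle of these 3 letters had peaks at 3.99 to 20.1% of their copies, and the 5 with C or G there at 26.7 to 54.3%. Members made up 1.004% of the copies followed by ATC and 12.7% of those followed by GCC. Among the copies with a called peak the share without Rad21 was 56.4% and 60.3%, and 53.4% over all forms. Of all 67010 autosomal CTCF peaks 17543 lacked Rad21. Strength was not held equal here, and the peaks of these 2 forms had a median fold enrichment of 4.95 and 5.91.

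A further sequence was seen before the core motif. The letters TGCAGTNCC, which resemble the known upstream CTCF motif, were found on either strand within 100 bp of the summit at 751 of 3956 members (18.98%, 17.8 to 20.2%). They were found at 5.37% of all autosomal CTCF peaks, in 0.768% of flanking windows and at 4.78% of CAC sites at the members' strength. The letters were chosen from the sequence around the members' matches, on all autosomes together, so their shares here and in the next paragraphs are a description of these sites and no test of a difference between the classes.

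Where a peak had both a called match and the letters, the letters mostly stood at the place from which they had been chosen. Since they were picked there from the members' sequences, this is a description. Of the 492 members with both, 327 held the word. At 449 of 492 members (91.3%, 88.4 to 93.4%) the letters stood 14 to 6 bp before the match on the same strand, and at 851 of 1148 CAC sites they did so (74.1%, 71.5 to 76.6%). With at least 6 of the 8 fixed letters at that place as the criterion, 925 of 2482 members with a match qualified (37.3%, 35.4 to 39.2%), against 17.7% of all autosomal CTCF peaks with a match and 14.6% of CAC sites at the members' strength.

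The shares were also counted apart from repeated matches and from the word. With matches that occur once in the genome, the exact letters were within 100 bp of the summit at 12.3% of the members and 3.23% of weighted CAC sites, and at least 6 of the 8 letters stood at that spacing in 24.8% and 7.66%. With word-bearing peaks left out, the letters were within 100 bp of the summit at 14.7% and 3.599%. At peaks without any called match the shares were 17.6% of 1474 members and 3.70% of CAC sites.

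Read in the other direction, the share of distal CTCF peaks without Rad21 was higher among peaks with the upstream letters in each of the 7 ranges, again as a description. Between 5 and 5.5 in fold enrichment 132 of 172 peaks with the letters lacked Rad21 (76.7%, 69.9 to 82.4%), and 770 of 1982 without them did (38.8%, 36.7 to 41.0%). Between 8 and 10 the shares were 40.5% (35.4 to 45.9%) and 13.9% (12.8 to 15.2%). At 15 or more they were 2.24% of 714 peaks (1.38 to 3.61%) and 0.729% of 10699 (0.585 to 0.909%). The share for word-bearing peaks lay between these in each of the 7 ranges, with 63.9% of 366 at the weakest and 11.6% of 808 between 10 and 15. Over all strengths 1577 of the 2328 peaks with the letters had Rad21.

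**Figure D3:**
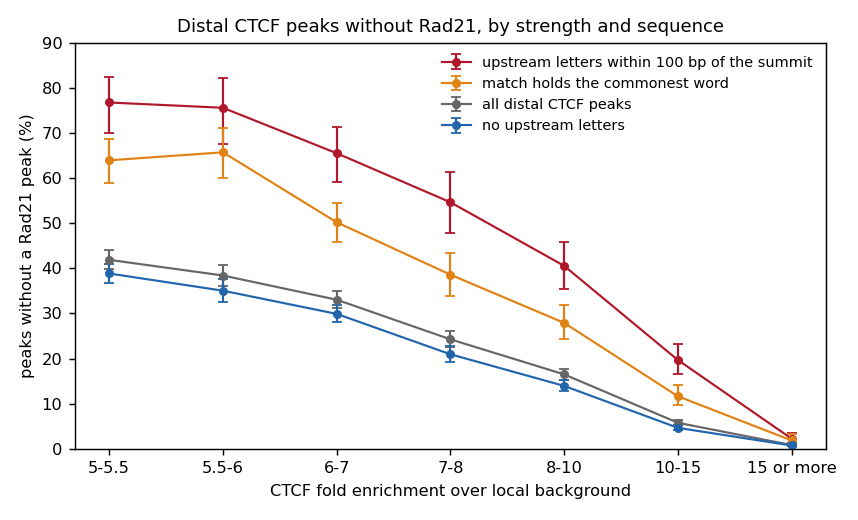
Percentage of distal autosomal CTCF peaks without a Rad21 peak (y axis) in 7 ranges of CTCF fold enrichment (x axis), for all of them, for peaks with and without the upstream letters and for peaks whose match holds the commonest word; bars are 95% Wilson intervals. Peaks with the letters run from 76.7% to 2.24%, above the 38.8% to 0.729% of peaks without them in each range.

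A CpG inside the match was more frequent at the members than at CAC sites of equal strength, but its share was near that of all CTCF peaks. The 20 bp match held CG at 1088 of 2482 members (43.8%, 41.9 to 45.8%), against 42.3% of all autosomal CTCF peaks with a match and 31.5% of CAC sites at the members' strength, a difference of 12.4 percentage points (9.99 to 14.8). It was 13.0 percentage points (9.67 to 16.2) for matches that occur once in the genome, and 3.15 with no weighting by strength. Lone CTCF peaks at promoters had one in 48.7% at the members' strength, and the interval of the difference included 0 (−4.89 percentage points, −12.2 to 2.30). The wider sequence went the other way. Members had 2.40 ± 2.46 CG (SD, n = 3956) within 100 bp of the summit, a difference of −0.73 from CAC sites at equal strength (−0.85 to −0.62), and a GC content of 46.8% ± 6.15, a difference of −1.90 percentage points (−2.14 to −1.65). DNA methylation was not measured in these lists.

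**Figure D4:**
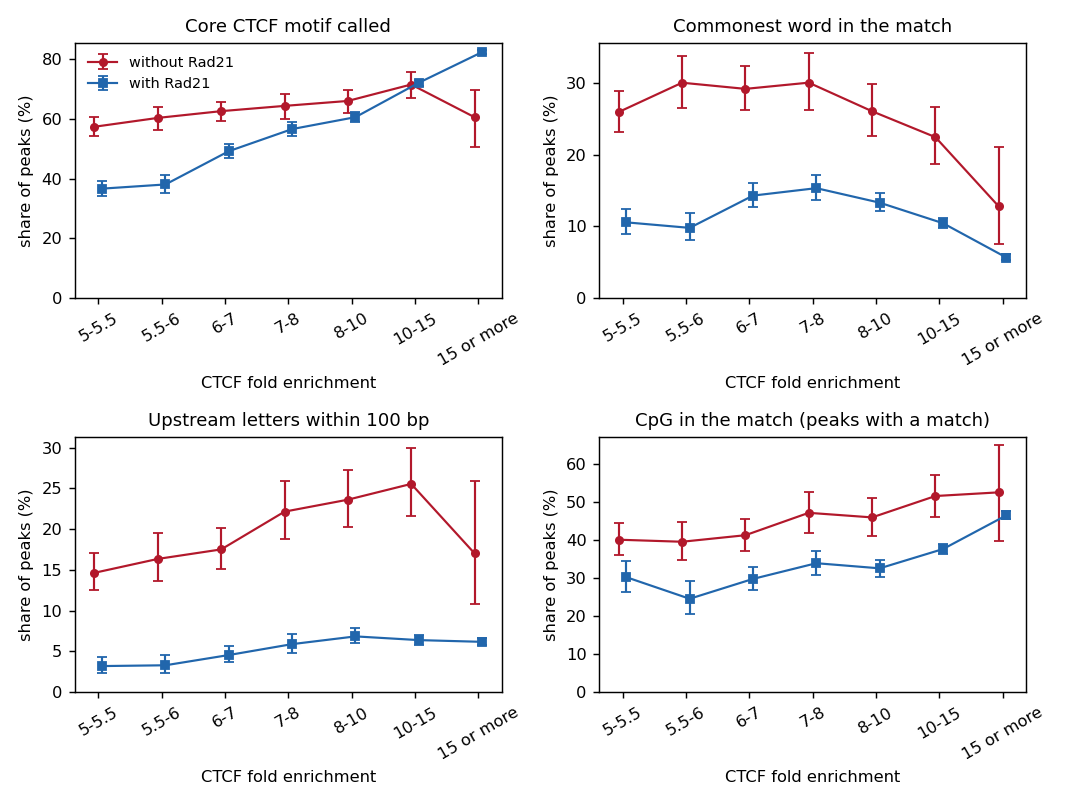
Share of peaks (%, y axes) with a called core motif, the commonest word, the upstream letters and a CpG in the match, in 7 ranges of CTCF fold enrichment (x axes), for distal peaks without Rad21 (red) and with Rad21 (blue); bars are 95% Wilson intervals. The word and the letters are more frequent without Rad21 in each range, while the core motif falls below the CAC sites at 15 or more (60.6% against 82.5%).

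For the members that lack a core match, no single other factor searched differed beyond its interval. Letters of 11 factors or factor groups (17 consensus forms on both strands) were searched within 100 bp of the summit at 1474 such members and 7989 such CAC sites. At least 1 of the 11 was found at 470 members (31.9%), where 37.8% of all autosomal CTCF peaks without a match had one. Weighted CAC sites had one in 34.7%, a difference of −2.84 percentage points (−5.501 to −0.016). For each factor by itself the interval of the difference, at the 99.5% level for 11 comparisons, included 0. FOXA letters, of the liver pioneer factors, were found at 7.598% of the members, 0.64 percentage points below weighted CAC sites (interval from −2.63 to 2.12). Letters of HNF4A were found at 0.9498% (difference −0.91, from −1.81 to 0.78), those of the hepatocyte factor HNF1 at 1.70%, those of STAT5, which relays growth hormone, at 5.56%, those of CEBP at 1.56%, AP-1 at 3.05%, ETS at 1.09%, SP/KLF at 7.12%, E-boxes at 3.799% and nuclear receptor hexamer sites at 4.21%. The CRE was found at 0 of 1474, which by the Wilson interval allows up to 0.260%. Flanking windows without a peak had FOXA letters in 6.65%, HNF4A in 0.886%, HNF1 in 1.95%, STAT5 in 6.01% and CEBP in 1.02%. They had AP-1 letters in 3.38%, ETS in 0.861%, SP/KLF in 8.44%, E-boxes in 2.88%, nuclear receptor sites in 3.82% and the CRE in 0.107%. Binding of these factors was not measured. Forms that differ from the letters searched were not counted.

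**Figure D5:**
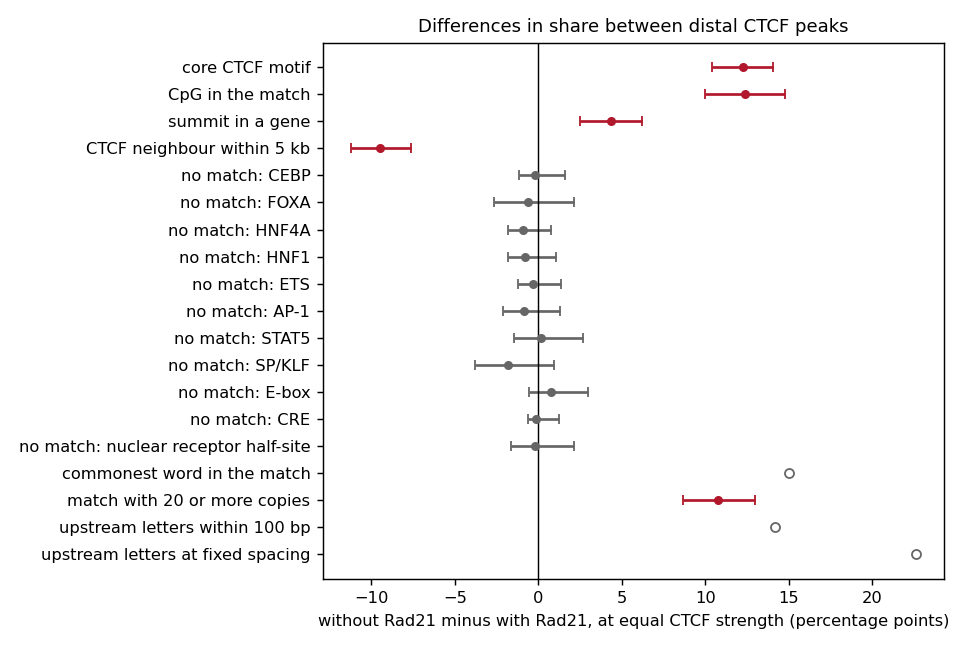
Difference in share (percentage points, x axis) between distal CTCF peaks without and with Rad21 at equal CTCF strength, with 95% intervals (99.5% for the 11 factors searched in peaks without a match); red marks intervals that leave out 0, and open circles without an interval mark the word and the upstream letters, which were picked from the members. The core motif lies at 12.3 percentage points, which is no more than the word. Each of the 11 other factors has an interval that includes 0. Of the members' 727 matches with 20 or more copies 666 hold the word, so that difference is a description too.

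The members lay mainly in introns and between genes. Of the 3956 summits 53.9% were in introns, 41.6% were intergenic, 1.92% were in coding exons, 1.82% in untranslated regions and 0.758% in exons of noncoding genes. Inside a gene were 58.4% (56.8 to 59.9%), against 59.6% of all autosomal CTCF peaks, promoter peaks included, and 54.0% of CAC sites at equal strength, a difference of 4.37 percentage points (2.51 to 6.201). This difference was 2.69 at a fold enrichment minimum of 6, 7.16 when Rad21 peaks needed a −log10 q of at least 10 and 8.52 with no weighting by strength. The 208 members over 100 kb from any Rad21 peak were inside a gene in 28.8% (23.1 to 35.3%).

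Another CTCF summit lay within 5 kb of 1315 members (33.2%, 31.8 to 34.7%), where 43% of all autosomal CTCF peaks had one. The difference from CAC sites depended on the measure of strength. It was −9.46 percentage points (−11.2 to −7.65) at equal fold enrichment and 5.09 (3.42 to 6.79) at equal −log10 q, so no direction is given.

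Across the 19 autosomes the share of distal CTCF peaks of this strength that lacked Rad21 ran from 10.6% on chromosome 19 (105 members, 8.82 to 12.7%) to 15.9% on chromosome 5 (339 members, 14.4 to 17.5%).

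Lone CTCF peaks at promoters differed from the distal ones in some of these measures and not in others. The 448 autosomal peaks of the same minimum strength without Rad21, but with the summit within 1 kb of a transcript start, had a core match in 39.7% (35.3 to 44.3%), 23.0 percentage points below the members at the members' strength (18.1 to 27.5). The upstream letters were at 7.81% of them, and they held 8.66 ± 9.05 CG within 100 bp of the summit (SD, n = 448). For repeated matches the interval of the difference included 0 (29.3% of the members against 27.8% at the members' strength, −6.17 to 7.08 percentage points), as it did for a CpG in the match. Distal Lone CTCF peaks below a fold enrichment of 5 (11095 peaks) had the word in the match at 19.2% and the upstream letters at 6.50%.

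The 12 members of highest CTCF fold enrichment were scattered over 9 chromosomes. The strongest (25.15) spans 55387633 to 55388006 on chromosome 7, in intergenic sequence 36566 bp downstream of the start of Mrgprb5, which encodes a Mas-related receptor, and the nearest Rad21 peak was 595791 bp away. The next (25.0) spans 29049872 to 29050493 on chromosome 2 in an untranslated region of Ntng2, which encodes a membrane-anchored netrin of neurons. It had no called match, and its nearest Rad21 peak was 4882 bp away. The third (24.8) spans 78548536 to 78548943 on chromosome 9 in an intron of Cd109, a surface protein of the complement protein family, 54359 bp from Rad21, with a match of 22.4 bits.

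The match CCGCCACTAGATGGTGCTAA, which had 55 copies in the genome, stood both at the Mrgprb5 site and at the fourth strongest member (23.0), which lies on chromosome 10 from 101897594 to 101898084, 55158 bp downstream of Nts, the neurotensin gene. The sites near the odorant receptor genes Olfr444 and Olfr687 had a fold enrichment of 21.6 each and were 161325 and 142799 bp from the nearest Rad21 peak. The peak near Kap (21.3) lay 31854 bp from Rad21 and had a match of 20.7 bits, and the one upstream of Mocs1 (22.5) lay 6946 bp from Rad21 and had a match of 16.4 bits.

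No match was called at the peaks near Diras2 (22.2, 76572 bp from Rad21), Bdkrb2 (21.7, 6639 bp) and Odf3l1 (21.3, 23312 bp) or at a peak of chromosome 18 (21.8, 11940 bp). 

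High motif scores occurred at weak as well as strong members. The highest score, 27.0 bits, belonged to the Pdpn site on chromosome 4 (fold enrichment 13.9), and the second, 26.2 bits, to a peak in an untranslated region of Dusp3, a protein phosphatase gene (8.48). The B3galtl site had 26.15 bits and a fold enrichment of 10.3. A peak on chromosome 13 from 72507621 to 72507935, with 26.0 bits, had a fold enrichment of 5.22. The fifth, on chromosome 18, had 26.0 bits and a fold enrichment of 19.99.

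Gene lists of liver biology and of other classes, 12 in all, were examined, with 277 of 282 listed genes found in the annotation. For each, genes were counted that had a member in the gene body or within 50 kb of a transcript start. Of all 21418 autosomal protein-coding genes 5790 had one (27.0%), and 16997 (79.4%) had a distal CAC site of the same strength there.

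The liver lists were close to the share of all genes. Of 30 genes for secreted plasma proteins 9 had a member, among them Plg, the plasminogen gene, with a peak of 10.4 that lies in an untranslated region of the neighbouring gene Slc22a3, 42736 bp downstream of the Plg start, and Ambp, with an intronic peak of 10.4. Of 20 hepatocyte transcription factor genes 6 did. Ppara, which encodes the fatty acid sensor, had an intronic peak of 11.7 with the word and the upstream letters, and Cux2 had one of 9.18, 29876 bp upstream. Of 32 genes for cytochromes P450 and conjugation enzymes 8 did, with a peak of 11.7 in an untranslated region of Edc3, 28725 bp upstream of Cyp1a2, and one of 8.29 in an intron of Ccbp2, 14076 bp downstream of the start of Cyp8b1, a bile acid synthesis gene. Ugt1a1 had a member but no distal CAC site of that strength. In other lists the same held for Clock, Tbx5, Cntnap5a, Gria2, Peg10 and Sgce. The share of such genes over all protein-coding genes was not counted.

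In growth hormone signalling 5 of 16 genes had a member, including Socs2, a feedback inhibitor of the pathway, with an intronic peak of 5.98, and Socs3 with a peak of 5.86 in an intron of Pgs1. The urea cycle and amino acid list had 5 of 16, with a peak of 9.27 in an intron of Cps1, which makes carbamoyl phosphate, and one of 7.99 in an intron of Med23, 41287 bp downstream of the start of Arg1. The glucose list had 5 of 16, with peaks of 8.72 upstream of Foxo1 and 8.70 downstream of Pck1, a gluconeogenesis gene. The Pck1 site lay 193 bp from a Rad21 peak. The lipid and bile acid list had 7 of 27, with intronic peaks of 11.7 in Acadm and 11.1 in Cpt1a, both of fatty acid oxidation. Of 18 clock genes 6 had a member, the strongest 2 sites being intronic in Rora (9.48 and 8.56), and Clock had no distal CAC site of that strength.

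Outside metabolism, the neuronal and synaptic list had the highest share, with 18 of 26 genes (69.2%). These genes had a median length of 830 kb, against 15.5 kb over all protein-coding genes, and the part of length in the count was not tested. A peak of 16.1 in an intron of Macrod2 lay 153597 bp from Rad21, and Nrxn3, a presynaptic adhesion gene, had an intronic one of 11.5. Of 20 genes for architectural proteins 9 had a member (45%, median gene length 45.9 kb). They included Ctcfl, a paralogue of Ctcf active in the germ line, with an intronic peak of 11.2, and the cohesin subunit gene Stag1 with one of 8.38. Developmental regulators had 9 of 34, with peaks of 9.76 upstream of Hoxb9 and of 7.08 upstream of Hoxd13 in a coding exon of Evx2. Imprinted genes had 5 of 22, with intronic peaks of 6.597 in Rasgrf1 and of 5.71 in Commd1, 7420 bp upstream of Zrsr1.

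Members in coding exons were few. The 3 strongest were in Dst, a cytoskeletal linker gene (14.8, with a match of 21.5 bits), in Zc3h13, which encodes a part of the RNA methylation complex (13.0, no match), and in Znhit1, a chromatin remodelling gene (12.4, no match but with the upstream letters).

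Clusters of 3 or more members with neighbouring summits within 20 kb numbered 24. The largest held 5 members on chromosome 5 from 130748259 to 130791158, in introns of Tyw1, with fold enrichments from 5.36 to 6.65. The next held 4 on chromosome 5 from 125988020 to 126007199 at Aacs, all with a called match and with fold enrichments from 5.28 to 11.1. The third held 4 on chromosome 17 from 30758441 to 30803520 at Dnahc8, 3 with a match, from 5.63 to 9.87. The matches within each cluster were different 20 bp sequences.

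The values of the rule ran on without a break at its limits. The 2 members closest above the fold enrichment limit, near Crnn and in an intron of Mrpl20, had 5.001 each, and the 2 peaks closest below it, in Agap1 and near Cox7a2, had 4.9998 and 4.998. At the distance limit, members near Zfp952 and in Asph had summits 1002 bp from a transcript start, and peaks near Vkorc1 and in Ift122 were left out at 999 and 997 bp.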

How the data were processed

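For either factor the authors aligned reads to mm9 by Bowtie2, discarded those that did not map uniquely, merged all libraries, and called peaks by MACS2, without blacklisted regions or peaks made of identical reads alone. The deposited lists give for each peak a fold enrichment (a ratio to the local background), −log10 values of p (not used) and q, and a score that follows from them, which was not used. The values enter as deposited, and CTCF and Rad21 values were not compared. No per-library column was used (0 unused), and depth per library is not part of the lists.

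Peaks were compared in 7 ranges of CTCF fold enrichment from 5 upward (limits 5.5, 6, 7, 8, 10 and 15), weighted by the members' numbers in each. Differences of shares have intervals built from Newcombe score intervals, and differences of means have normal intervals. A difference counts where its interval leaves out 0. There is no p-value, because each list is a pool. The 20 bp matrix came from 1000 peaks for odd-numbered and for even-numbered autosomes, and its threshold from windows 1000 bp to either side. Sequence and GENCODE genes were read from the same build with pysam 0.24.0, in Python 3.11.15 with numpy 2.4.6, pandas 2.3.3 and scipy 1.17.1. Overlaps and gaps were checked against bedtools 2.31.1, and each interval was tested on simulated data. Plots were drawn with matplotlib 3.10.9.

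Named sites are the 12 of highest fold enrichment, the 5 of highest score, 2 per gene list, 3 in coding exons, 3 clusters, 3 shortest gaps and those at the limits. Members, lists and rules were chosen with earlier results of these data known. The word, the upstream letters, genome copies and the 3 members with the letters and no match were added after the sequences had been seen. Repeats could not be read from the genome file, which is not soft-masked.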

Additional observations from a re-analysis of the deposited data

How the results depend on the processing

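The alternatives changed the limits of strength, distance and Rad21, the strata, the motif call and, after the data had been seen, the treatment of repeated matches and odd-numbered against even-numbered autosomes. Under them 121 values kept their call, which for a difference means its direction and its side of 0, for the number of members a change of at most 1.5 times and for the median gap a value within its interval. Of these 121, 11 were for the word, 15 for the upstream letters and 13 for the letters at their spacing, all picked from the members. Another 12 were for repeated matches, most of which held the word at the members. For these values the side of 0 is a description. The 99 values for the 11 other factors had intervals that included 0 as in the report, and 11 of them had the opposite sign. Without strata the motif share difference was −7.23 percentage points, the score difference −0.23 bits and the neighbouring CTCF difference 0.294 percentage points. With strata of −log10 q the neighbouring CTCF difference was 5.09. With the matrix learned from lone distal peaks the score difference was 0.086 bits (−0.123 to 0.295). The members numbered 2448 at a fold minimum of 6, 1591 at 7 and 6819 when Rad21 peaks needed a −log10 q of at least 10. The median gap to Rad21 was 8780 and 9465 bp at minimums of 6 and 7, 9299.5 bp for summits over 5 kb from a transcript start, 9217 bp where no Rad21 peak lay within 1 kb and 1654 bp with the q limit. The cause of these shifts was not tested. The motif share difference ran from 2.98 to 13.1 percentage points over its other alternatives, apart from the matrix learned from lone distal peaks. With that matrix it was 21.1 percentage points, which is a description, since the matrix came from the members themselves. Except where word-bearing peaks were left out, the motif share differences include matches with the word. The excess of the upstream letters, also a description, ran from 9.04 to 16.9 and that of the word from 12.9 to 17.9.

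No paired analysis was possible because each list is a pool of libraries and carries no replicate column, and for the same reason no replicate was left out. The soft-masked share and its alternative were not run, since the genome file has no soft-masked bases. Depth per library is not part of the lists, and a site without a Rad21 peak is one below the calling limit, with 3 Rad21 libraries pooled against 4 for CTCF. Peaks that share sequence are less independent than the intervals assume.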
